A study of Mus musculus with 10 samples.

Results

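The BCL2 family genes that hold mitochondrial cell death in check or set it off were read in the mouse brain 24 h after stroke surgery. The set was given as 10 genes, namely Bcl2, Bcl2l1, Bcl2l2, Mcl1, Bax, Bak1, Bid, Bbc3, Pmaip1 and Bcl2l11. A probe set, the group of probes that reads 1 transcript on an Affymetrix array, was taken for a gene only where the platform annotation listed it with that gene symbol alone. This gave 31 probe sets for 9 of the 10 genes, among 18193 genes measured in all. Bax, the pore-forming partner of Bak1, had no probe set listed with its symbol alone and is not analysed here. For a gene with several, the probe set of highest mean over all 10 arrays stands for it, and the other 22 probe sets are described after the genes.

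Total RNA came from 1 brain hemisphere of male mice taken 24 h after surgery. The surgery was either occlusion of the middle cerebral artery (MCAO), a stroke model, or a sham operation. The groups were Hsp72Tg MCAO (n = 3), Hsp72Tg sham (n = 2), WT MCAO (n = 3) and WT sham (n = 2), with the ischemic hemisphere taken after MCAO and the hemisphere of the same side after sham surgery. Hsp72Tg mice overexpress Hsp72, the stress-inducible heat shock protein, and the series set out to relate that protein to the brain's response to stroke. The labels give neither strain nor age, and neither the promoter, species nor construct of the transgene. They list each array as a sample of its own without saying whether each is 1 animal, so p-values measure the spread between these samples.

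The BCL2 family meets at the outer membrane of mitochondria. Guardian proteins such as BCL2, BCL-XL (from Bcl2l1), BCL-W (from Bcl2l2) and MCL1 bind and restrain the effectors BAX and BAK, which otherwise form pores that release cytochrome c and start the caspase cascade. Proteins that share only the short BH3 stretch with the family, among them BID, PUMA (from Bbc3), NOXA (from Pmaip1) and BIM (from Bcl2l11), carry stress signals to that balance, and neurons exposed to ischemia are a classic setting in which it has been studied.

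Promoter sequences of Mcl1 and Bcl2 are shown because the probe sets of these 2 guardian genes all lay on opposite sides of sham after MCAO, as described below. Each is the stretch of 250 bases before the start of the gene's first listed transcript, from RefSeq on the build GRCm38.p6, and capitals mark the GC box, GGGCGG on either strand. The windows are chr3:95658471-95658720 on the plus strand for Mcl1 and chr1:106714291-106714540 on the minus strand for Bcl2.
Mcl1: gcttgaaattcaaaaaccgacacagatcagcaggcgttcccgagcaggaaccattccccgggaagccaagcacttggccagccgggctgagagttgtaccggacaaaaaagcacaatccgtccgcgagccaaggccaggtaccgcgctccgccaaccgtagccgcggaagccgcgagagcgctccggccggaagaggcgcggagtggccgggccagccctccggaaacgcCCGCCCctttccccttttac
Bcl2: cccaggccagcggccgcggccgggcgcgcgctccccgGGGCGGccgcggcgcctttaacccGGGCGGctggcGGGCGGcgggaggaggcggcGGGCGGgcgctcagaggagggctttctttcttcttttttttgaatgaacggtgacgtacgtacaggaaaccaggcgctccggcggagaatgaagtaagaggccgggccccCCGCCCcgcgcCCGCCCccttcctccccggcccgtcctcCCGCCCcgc
The Mcl1 window held 1 GC box and the Bcl2 window 7. Of the 13 such windows listed for 8 of the measured genes, 9 held a GC box, as did 32.7% of 32851 windows of all genes. None of the 13 held the STAT motif TTCNNNGAA, the AP-1 motif TGANTCA or the cyclic AMP response element TGACGTCA on either strand, which 7.02%, 6.75% and 1.55% of all windows held. These matches describe letters in a window and say nothing of binding.

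Values below are log2 RMA values, on which a difference of 1 is a 2-fold change. Array medians lay between 6.67 and 6.73 and lower quartiles between 5.14 and 5.21. Levels are compared between arrays for the same probe set and not between genes, since probe sets differ in brightness. On the first principal component, with 50.3% of the variance, the array Hsp72Tg MCAO 1 (-12.9) lay nearer to the sham arrays (-23.7 to -20.7) than to the other 5 MCAO arrays (11.7 to 32.3). WT sham 1 stood apart in cerebellar markers, whose mean was 9.83 there and 7.36 to 7.57 on the other 9 arrays. Neuron markers averaged 11.98 to 12.40 over the arrays, in RNA labelled as brain. Hspa1b and Hspa1a, which encode Hsp72, were higher after MCAO by 3.47 (SE 0.33, limma adjusted p = 0.00343) and 3.12 (SE 0.41, limma adjusted p = 0.014). In Hsp72Tg MCAO 1 Hspa1b read 12.05, above the sham arrays (9.12 to 9.48). Gfap, an astrocyte marker, read 12.08 there, also above the sham arrays (10.05 to 10.77). Why that array lay nearer to sham on the first component was not tested. Hspa1b read 9.12 and 9.15 in Hsp72Tg sham, against 9.38 and 9.48 in WT sham, so the probe sets do not show the transgene and the genotype labels are unchecked here.

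The first comparison asked whether MCAO changed these genes, with 6 MCAO arrays set against 4 sham arrays over both genotypes. None of the 9 genes passed at an adjusted p under 0.05 in limma, where 1.46% of all genes did. In value, 8 of the 9 were higher after MCAO and Bcl2 alone was lower, while 42.5% of all genes were higher. The median change of the 9 was 0.26 and that of all genes -0.03. Unadjusted p was under 0.05 for 4 genes (Bak1, Mcl1, Bcl2l1 and Bcl2), against 19.1% of all genes. In a bulk hemisphere, fewer cells of a type and less RNA per cell cannot be told apart. The panels by group show how far the arrays of each gene scatter.

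**Figure D1:**
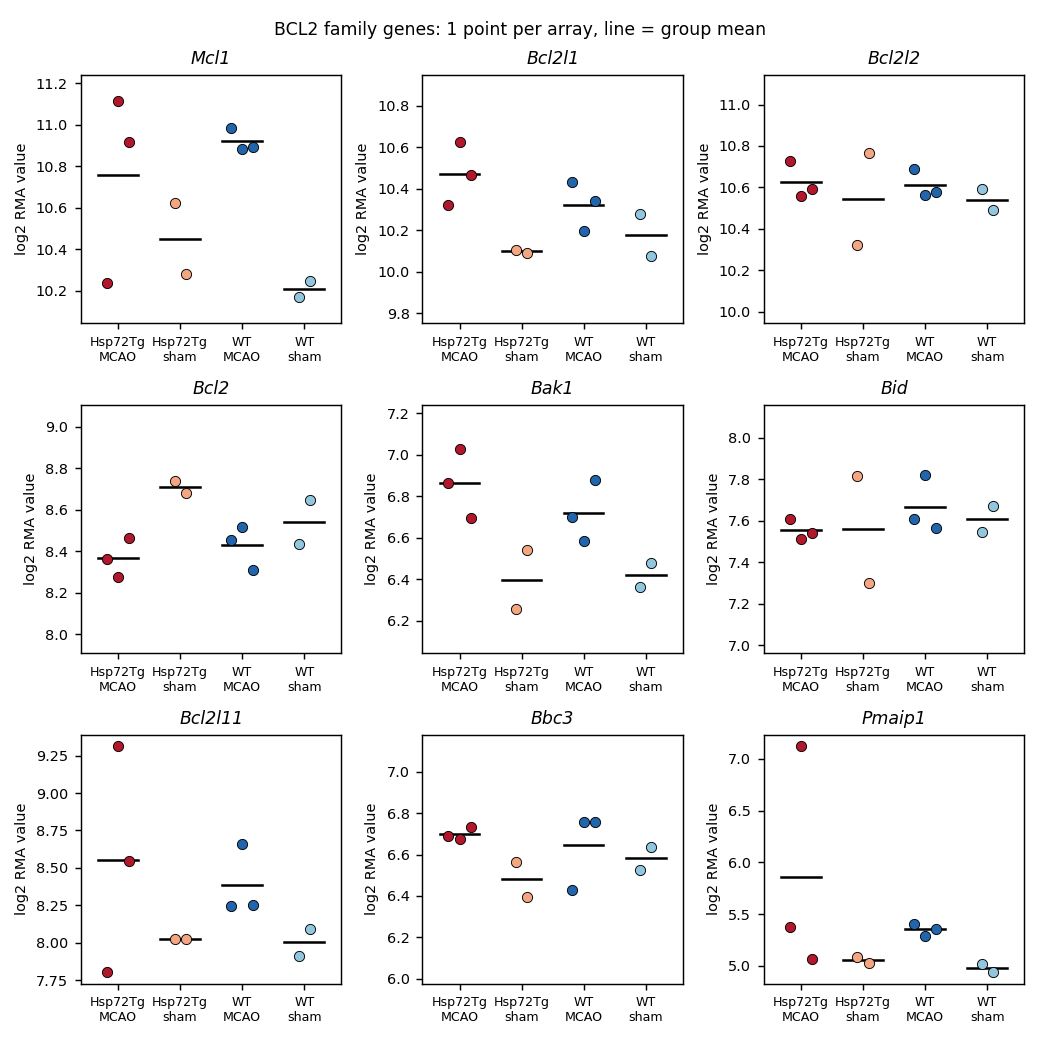
Log2 RMA value of each of the 9 genes (vertical axes) in the 4 groups, with 1 point per array and a line at the group mean. The MCAO arrays of Bak1 all lie above its sham arrays, 1 Hsp72Tg MCAO array of Mcl1 lies at 10.24 among the sham arrays, and 1 Hsp72Tg MCAO array of Pmaip1 lies at 7.12, above all other arrays.

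Among the guardians, Mcl1, whose short-lived protein restrains BAK and BIM, had the clearest pattern. It read 10.24, 11.11 and 10.92 in Hsp72Tg MCAO, against 10.62 and 10.28 in Hsp72Tg sham. It read 10.98, 10.88 and 10.89 in WT MCAO, against 10.17 and 10.25 in WT sham. The WT groups were fully separate, while in Hsp72Tg the array Hsp72Tg MCAO 1 lay below both sham arrays and the other 2 MCAO arrays lay above them. Over both genotypes Mcl1 was 0.51 higher after MCAO (SE 0.16, unadjusted p = 0.00879), which did not pass (limma adjusted p = 0.124). Without Hsp72Tg MCAO 1 it rose by 0.64 (SE 0.09, limma adjusted p = 0.00193), and the 5 remaining MCAO arrays all lay above the 4 sham arrays. The array left out was the MCAO array nearest to sham on the first principal component. Here and below, a pass without it is a description and no separate test.

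Bcl2l1, which encodes BCL-XL, the guardian most often tied to the survival of mature neurons, read 10.32, 10.62 and 10.47 in Hsp72Tg MCAO, against 10.10 and 10.09 in Hsp72Tg sham. It read 10.43, 10.20 and 10.34 in WT MCAO, against 10.28 and 10.08 in WT sham. All 3 Hsp72Tg MCAO arrays lay above the Hsp72Tg sham arrays, and in WT the groups overlapped through the high WT sham 1. The difference over both genotypes was 0.26 (SE 0.08, unadjusted p = 0.0122), which did not pass (limma adjusted p = 0.141). Without Hsp72Tg MCAO 1 it was 0.30 (SE 0.08) and passed (limma adjusted p = 0.0451).

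Bcl2l2, which encodes BCL-W, read 10.73, 10.56 and 10.59 in Hsp72Tg MCAO, against 10.32 and 10.77 in Hsp72Tg sham. It read 10.69, 10.56 and 10.58 in WT MCAO, against 10.59 and 10.49 in WT sham. The groups overlapped in both genotypes, and the 2 Hsp72Tg sham arrays lay further apart than all 6 MCAO arrays. The difference was 0.07 (SE 0.09, interval -0.13 to 0.28, limma adjusted p = 0.707).

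Bcl2, the founding guardian of the family, was the gene whose value was lower after MCAO. It read 8.36, 8.28 and 8.46 in Hsp72Tg MCAO, against 8.74 and 8.68 in Hsp72Tg sham. It read 8.46, 8.52 and 8.31 in WT MCAO, against 8.43 and 8.65 in WT sham. The Hsp72Tg MCAO arrays all lay below the Hsp72Tg sham arrays, and in WT the groups overlapped. The difference over both genotypes was -0.23 (SE 0.08, unadjusted p = 0.0143, limma adjusted p = 0.15).

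Bak1, the pore-forming effector, had the smallest p of the 9 genes. It read 6.86, 7.03 and 6.69 in Hsp72Tg MCAO, against 6.26 and 6.54 in Hsp72Tg sham. It read 6.70, 6.59 and 6.88 in WT MCAO, against 6.36 and 6.48 in WT sham. All 6 MCAO arrays lay above all 4 sham arrays, which 3.19% of all genes also showed, and Bak1 was the 1 gene of the 9 to do so. The lowest MCAO array, at 6.59, and the highest sham array, at 6.54, were close. Bak1 was 0.38 higher after MCAO (SE 0.10, unadjusted p = 0.00276), which did not pass (limma adjusted p = 0.0803). Without Hsp72Tg MCAO 1 the difference was 0.38 (SE 0.10) and passed (limma adjusted p = 0.0418). The unadjusted p of Bak1 was larger in that fit (limma, 0.00462), so its own evidence did not grow. In that fit 2251 of all genes passed, against 266 with every array.

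**Figure D2:**
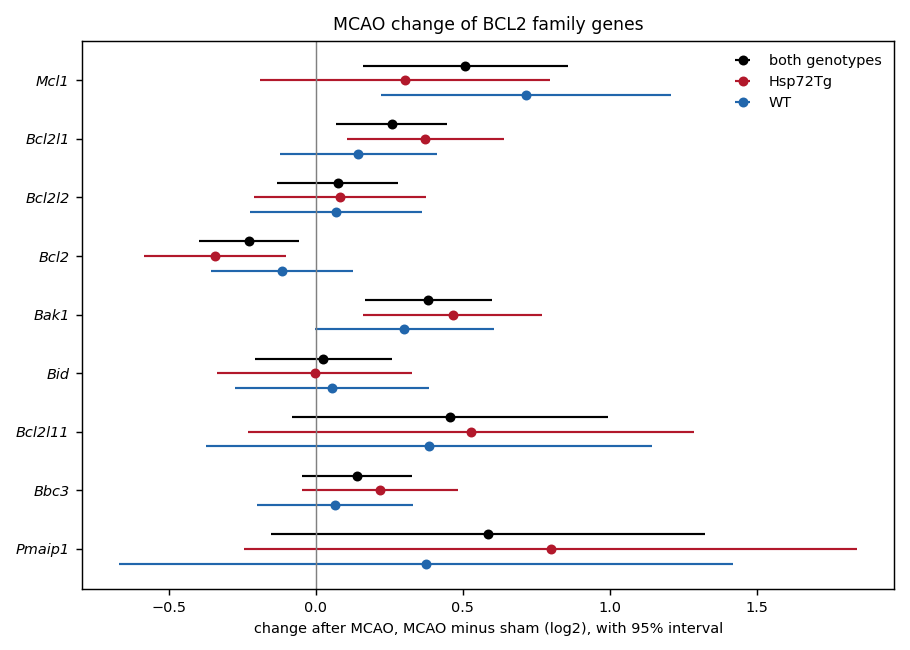
MCAO minus sham in log2 RMA units (horizontal axis) for each gene, over both genotypes, in Hsp72Tg and in WT, with 95% intervals from limma. The intervals over both genotypes lie above 0 for Mcl1, Bcl2l1 and Bak1 and below 0 for Bcl2, and those of Pmaip1 and Bcl2l11 are the widest.

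Bcl2l11 encodes BIM, a BH3-only protein that binds all the guardians named here. It read 7.80, 9.31 and 8.55 in Hsp72Tg MCAO, against 8.03 and 8.03 in Hsp72Tg sham. It read 8.25, 8.66 and 8.25 in WT MCAO, against 7.91 and 8.09 in WT sham. The WT groups did not overlap, while the Hsp72Tg MCAO arrays fell on both sides of their sham arrays and held the lowest and the highest value of the gene. The difference over both genotypes was 0.46 (SE 0.24, limma adjusted p = 0.334). It rose by 0.64 without Hsp72Tg MCAO 1 (SE 0.16, limma adjusted p = 0.0265) and was 0.27 higher without Hsp72Tg MCAO 2.

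Pmaip1 encodes NOXA, a BH3-only protein that binds MCL1 and is a p53 target. It read 5.38, 7.12 and 5.07 in Hsp72Tg MCAO, against 5.09 and 5.03 in Hsp72Tg sham. It read 5.41, 5.29 and 5.36 in WT MCAO, against 5.02 and 4.94 in WT sham. All 4 sham arrays and 1 MCAO array lay below their own array's lower quartile, so these values are near the dim end of the scale. The 3 WT MCAO arrays lay above the WT sham arrays, and in Hsp72Tg 1 array, Hsp72Tg MCAO 2, stood far above the rest while Hsp72Tg MCAO 3 lay between the sham arrays. The difference over both genotypes was 0.59 (SE 0.33, limma adjusted p = 0.367), and it was 0.27 without Hsp72Tg MCAO 2.

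Bbc3, which encodes PUMA, another p53 target, read 6.69, 6.67 and 6.73 in Hsp72Tg MCAO, against 6.56 and 6.40 in Hsp72Tg sham. It read 6.43, 6.76 and 6.76 in WT MCAO, against 6.53 and 6.64 in WT sham. The Hsp72Tg groups did not overlap, and in WT 1 MCAO array lay below both sham arrays. The difference was 0.14 (SE 0.08, limma adjusted p = 0.392).

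Bid, which caspase-8 cleaves to link death receptors to mitochondria, read 7.61, 7.51 and 7.54 in Hsp72Tg MCAO, against 7.82 and 7.30 in Hsp72Tg sham. It read 7.61, 7.82 and 7.56 in WT MCAO, against 7.55 and 7.67 in WT sham. The groups overlapped in both genotypes. The difference was 0.03 (SE 0.10, interval -0.21 to 0.26, limma adjusted p = 0.922).

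How many of the 9 genes passed turned on the array Hsp72Tg MCAO 1. Without it 4 genes rose over both genotypes (Mcl1, Bcl2l11, Bak1 and Bcl2l1), as did 6.02% of all genes in that fit. Each array was left out in turn, and this MCAO array lay nearest the sham arrays. These passes are therefore descriptions and no separate test of the genes. The groups did not overlap for 3 of the 9 genes (Mcl1, Bak1 and Bcl2l11), against 6.98% of all genes with every MCAO array higher. Relative to the sham mean of its genotype, Hsp72Tg MCAO 1 differed by -0.22 for Mcl1 and -0.22 for Bcl2l11, while the other 5 MCAO arrays differed by 0.47 to 0.78 for Mcl1 and by 0.24 to 1.29 for Bcl2l11. Some other probe sets of Mcl1 and 1 of Bcl2l11 placed Hsp72Tg MCAO 1 above its sham arrays, as described below. The remaining dimmer probe sets of Bcl2l11 placed it between its sham arrays. The same array differed by 0.47 for Bak1, by 0.22 for Bcl2l1 and by -0.34 for Bcl2, within the range of the other 5 arrays for each of these genes. Hsp72Tg MCAO 2 held the highest value of the 6 for Pmaip1 (2.06), Bcl2l11 (1.29), Bak1 (0.63) and Bcl2l1 (0.53) and the lowest for Bcl2 (-0.43).

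**Figure D3:**
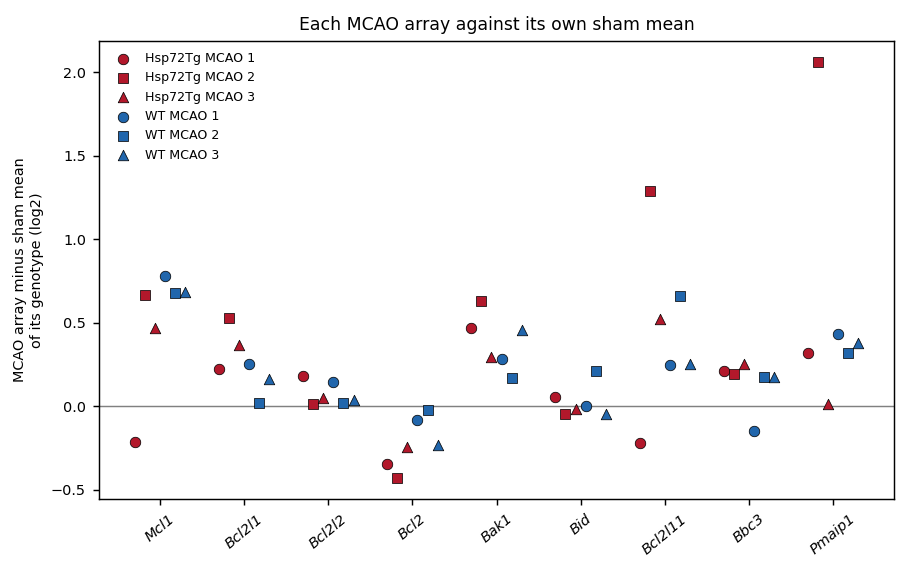
Each MCAO array minus the mean of the 2 sham arrays of its genotype, in log2 RMA units (vertical axis), for each gene, with 1 symbol per array. Hsp72Tg MCAO 1 lies below 0 for Mcl1 and Bcl2l11 (-0.22 for both), and Hsp72Tg MCAO 2 lies at 2.06 for Pmaip1 and 1.29 for Bcl2l11.

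Within WT, 3 MCAO arrays were set against 2 sham arrays. None of the 9 genes passed in limma, where 0.055% of all genes did, and 1 gene, Mcl1, had an unadjusted p under 0.05, against 10.2% of all genes. The median change was 0.14. Mcl1 was 0.71 higher (SE 0.22, limma adjusted p = 0.282), or 1.64-fold. The MCAO arrays of Mcl1, Bak1, Pmaip1 and Bcl2l11 all lay above the sham arrays, and 16.4% of all genes showed that order. The SE pools the spread of all 4 groups. In a fit on the 5 WT arrays alone Mcl1 (SE 0.08, limma adjusted p = 0.00375) and Pmaip1 (change 0.38, SE 0.08, limma adjusted p = 0.0439) passed, as did 5.25% of all genes in either direction. Mcl1 in WT also passed without Hsp72Tg MCAO 1 (limma adjusted p = 0.0154), whose spread enters the SE, and 1.96% of all genes rose in that fit.

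Within Hsp72Tg, none of the 9 genes passed in limma either, where 0.022% of all genes did. Unadjusted p was under 0.05 for Bak1 (0.46 higher, SE 0.14), Bcl2l1 (0.37 higher, SE 0.12) and Bcl2 (difference -0.34, SE 0.11), against 12% of all genes, and their adjusted p lay between 0.331 and 0.341. MCAO arrays all lay above sham arrays for Bak1, Bcl2l1 and Bbc3, an order that 9.05% of all genes showed, and all below for Bcl2, an order that 12.8% showed. Pmaip1 was 0.80 higher (SE 0.47) and 0.16 higher without Hsp72Tg MCAO 2. Without Hsp72Tg MCAO 1, Mcl1 rose by 0.56 (limma adjusted p = 0.0366) and Bcl2l11 by 0.90 (limma adjusted p = 0.0476), as did 3.39% of all genes.

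The comparisons of genotype asked whether Hsp72 overexpression went with other levels of these genes. The difference between the MCAO changes of Hsp72Tg and WT ran from -0.41 for Mcl1 (SE 0.31, interval -1.11 to 0.29) to 0.42 for Pmaip1 (SE 0.66, interval -1.05 to 1.90). It was 0.23 for Bcl2l1 (SE 0.17) and -0.23 for Bcl2 (SE 0.15), and without WT sham 1 these were 0.13 and -0.12. None of the 9 genes passed in limma, 0% of all genes did, and an unadjusted p under 0.05 was found for 1.75% of all genes and for 0 of the 9. The Mcl1 difference was -0.15 without Hsp72Tg MCAO 1, and the Pmaip1 difference turned to -0.21 without Hsp72Tg MCAO 2. These intervals are wide enough to hold differences as large as the MCAO changes themselves, so equal changes are not shown.

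After MCAO, Hsp72Tg minus WT ran from -0.17 for Mcl1 (SE 0.20) to 0.50 for Pmaip1 (SE 0.42), and Bcl2l1 differed by 0.15 (SE 0.11). None of the 9 passed in limma, nor did any gene (0%), and an unadjusted p under 0.05 was found for 2.68% of all genes and 0 of the 9. The Mcl1 difference turned to 0.10 without Hsp72Tg MCAO 1, and that of Pmaip1 to -0.13 without Hsp72Tg MCAO 2. For the probe sets that stand for the genes, the arrays of the genotypes overlapped in all 9, while 2.75% of all genes had every Hsp72Tg array higher and 4.69% every one lower.

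After sham surgery, Hsp72Tg minus WT ran from -0.10 for Bbc3 (SE 0.13) to 0.24 for Mcl1 (SE 0.24), and Bcl2 differed by 0.17 (SE 0.12). None of the 9 passed in limma, nor did any gene (0%), and an unadjusted p under 0.05 was found for 1.56% of all genes and 0 of the 9. Both Hsp72Tg sham arrays lay above both WT sham arrays for Bcl2, Mcl1 and Pmaip1, an order that 12.8% of all genes showed. The Mcl1 difference was 0.07 without Hsp72Tg sham 1, and that of Bcl2 was 0.06 without WT sham 1.

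The other probe sets show how far these values rest on 1 reading of a gene. All 6 probe sets of Mcl1 were higher after MCAO over both genotypes, by 0.51 to 1.12, and each had an unadjusted p under 0.05. Of the 31 probe sets 12 did, against 16.3% of all probe sets. None of the 31 passed in the fit over every probe set, where 0.433% of all probe sets did, and the smallest adjusted p was 0.0522 for 1 of Mcl1. That probe set read 7.97, 9.18 and 8.83 in Hsp72Tg MCAO, against 7.63 and 7.69 in Hsp72Tg sham, and 8.36, 8.51 and 8.56 in WT MCAO, against 7.14 and 7.32 in WT sham. Its 6 MCAO arrays all lay above its 4 sham arrays, Hsp72Tg MCAO 1 included, as in 3 of the 6 probe sets of Mcl1 and 4 of the 31 in all, against 2.6% of all probe sets. The brightest Mcl1 probe set, which stands for the gene above, gave the smallest of the 6 changes.

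All 5 probe sets of Bcl2 were lower after MCAO, by -0.23 to -0.05, and 1 of them had every MCAO array below every sham array, an order that 2.66% of all probe sets showed. All 5 of Bcl2l11 were higher (0.06 to 0.46), as were both of Bak1, where the dimmer one differed by 0.06. For Bcl2l11, the brightest probe set alone put Hsp72Tg MCAO 1 below both Hsp72Tg sham arrays. A dimmer one read 6.37 in Hsp72Tg MCAO 1, against 6.28 and 6.33 in Hsp72Tg sham. For Bcl2l1, 3 of 4 probe sets were higher, and the 3 dimmer ones differed by -0.03 to 0.09. Bcl2l2 had 3 of 4 higher and Bid 1 of 3. Within Hsp72Tg, 3 of the 6 probe sets of Mcl1 had an unadjusted p under 0.05, with changes of 1.004, 0.998 and 0.37, though the brightest one did not. Of all 31 probe sets 7 did, against 9.79% of all probe sets. The difference of the MCAO changes, Hsp72Tg minus WT, ran from -0.59 to -0.05 over the 6 probe sets of Mcl1. For Hsp72Tg minus WT after MCAO, 2 of the 31 had an unadjusted p under 0.05, against 2.92% of all probe sets. These were a dimmer one of Bcl2l1 (0.19, SE 0.08, limma adjusted p = 0.999) and a dimmer one of Bcl2l2 (0.22, SE 0.09, limma adjusted p = 0.999). In both, and in 1 of Bcl2 (0.20, SE 0.13), every Hsp72Tg MCAO array lay above every WT MCAO array, an order that 3.95% of all probe sets showed, while 3.91% showed the opposite order and 0 of the 31 did. The values over both genotypes of Bcl2l1 and Bak1 above rest on 1 probe set each, and those of Bbc3 and Pmaip1 had no other to compare with.

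**Figure D4:**
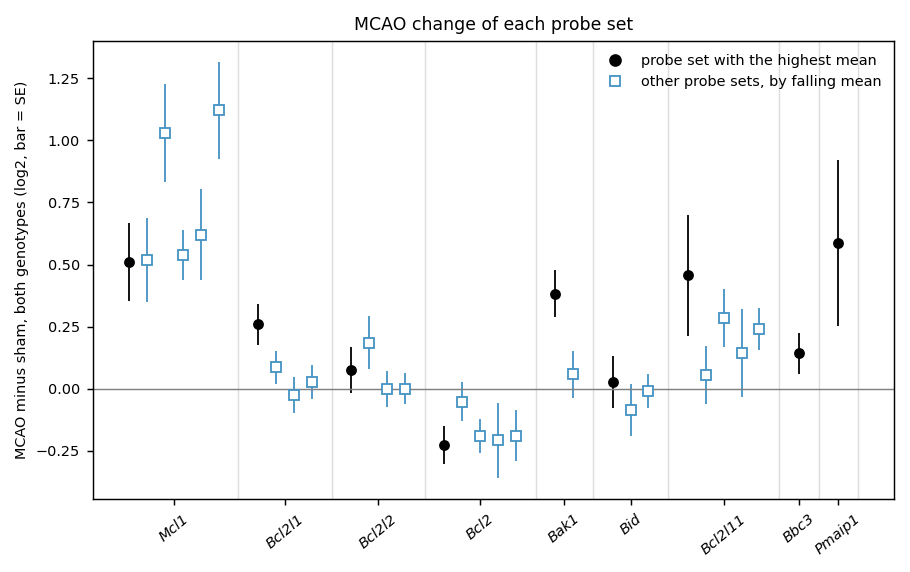
MCAO minus sham over both genotypes in log2 RMA units (vertical axis) for the 31 probe sets, grouped by gene, with bars of 1 SE from limma. Filled circles mark the probe set with the highest mean, which stands for the gene. All 6 probe sets of Mcl1 lie at 0.51 or above and all 5 of Bcl2 below 0.

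Genes around the BCL2 switch were read from 6 lists with 58 of 68 genes measured. Along the death receptor route that leads to Bid, 3 of 7 genes rose over both genotypes and 0 fell, and the list's median change was 0.46. Tnfrsf1a, the main TNF receptor, read 9.54, 10.27 and 10.53 in Hsp72Tg MCAO, against 8.86 and 9.01 in Hsp72Tg sham, and 10.33, 10.31 and 10.46 in WT MCAO, against 8.83 and 8.88 in WT sham. It rose by 1.35 (SE 0.16, limma adjusted p = 0.0113), with no overlap. Casp8, the protease that cuts BID, rose by 0.72 (SE 0.13, limma adjusted p = 0.0377), and Cflar, its catalytically inactive relative and brake, rose by 0.64 (SE 0.13, limma adjusted p = 0.0473). The other 4 genes did not pass, with Fas at 0.46 (SE 0.14), the receptor gene Tnfrsf10b at -0.04 and the adaptor genes Fadd and Tradd at -0.0025 and -0.05. Of all genes, 1.46% passed in either direction.

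Downstream of the pore, 1 of 10 genes rose and 0 fell, with a list median of -0.04. Of all genes, 1.06% rose and 0.407% fell, and the median was -0.03. That gene was Casp9, the initiator caspase of the apoptosome, which rose by 0.44 (SE 0.09, limma adjusted p = 0.0445). Apaf1 (0.10) and Cycs (0.02), the scaffold and the cytochrome c of the same complex, did not pass, nor did Endog, a mitochondrial nuclease gene (-0.13, SE 0.14). Among 8 inhibitor of apoptosis genes and their antagonists 0 passed, with a median of 0.0024. Birc3, an inhibitor of apoptosis induced through NF-kB, was 1.15 higher (SE 0.39, limma adjusted p = 0.152), and Septin4, which gives rise to an antagonist of XIAP, differed by -0.28 (SE 0.07, limma adjusted p = 0.0846). Among 11 other BCL2 family genes 0 passed, the median was -0.01, and the furthest values were those of the BH3-only genes Bmf (0.33, SE 0.16) and Bad (-0.21, SE 0.09).

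Of 10 transcription factors known to act on these genes, 1 rose and 0 fell, with a median of 0.21. The share of all genes that rose was 1.06%, and their median was -0.03. Stat3, which can drive Mcl1 and Bcl2l1, rose by 1.17 (SE 0.16, limma adjusted p = 0.0176). It read 9.49, 10.24 and 10.40 in Hsp72Tg MCAO, against 8.76 and 9.08 in Hsp72Tg sham, and 10.08, 10.09 and 10.28 in WT MCAO, against 8.88 and 9.01 in WT sham. Its MCAO arrays all lay above its sham arrays, and Hsp72Tg MCAO 1 was the lowest of the 6. Jun, a part of AP-1 that acts on Bcl2l11 in stressed neurons, was 1.04 higher (SE 0.26, limma adjusted p = 0.0796) with no overlap. Of 12 regulators of BCL2 family protein stability or binding, 0 passed and the median was -0.02. The furthest were Pim1, a kinase that acts on BAD (0.78 higher, SE 0.28, limma adjusted p = 0.17), and Gsk3b, a kinase that marks MCL1 for degradation (0.44 higher, SE 0.12, limma adjusted p = 0.0957).

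Without Hsp72Tg MCAO 1 more of these genes passed, as did more of all genes. Of 18193 genes, 2251 passed in either direction in that fit, against 266 with every array. Of the 2251, 1096 rose and the rest fell. In that fit, where 6.02% of all genes rose, 4 of 7 death receptor genes rose, Fas with a change of 0.57 (SE 0.09) among them, and 5 of the 10 transcription factors rose, including Stat3 by 1.31 (SE 0.09) and Jun by 1.24 (SE 0.16). Birc3 rose by 1.49 (SE 0.20, limma adjusted p = 0.00144), and Septin4 fell by 0.27 (SE 0.08, limma adjusted p = 0.0499). Of the 12 regulators of stability or binding 2 rose, Gsk3b by 0.54 (SE 0.07) and Pim1 by 0.96 (SE 0.22). Another 2 fell, Usp9x, a deubiquitinase that stabilises MCL1, by 0.28 (SE 0.07, limma adjusted p = 0.027), and Mapk8, the kinase JNK1, by 0.30 (SE 0.07, limma adjusted p = 0.0263). Among the 11 other BCL2 family genes 0 passed in that fit too.

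Some lists of cell type markers stood apart in the arrays Hsp72Tg MCAO 1 and 2, and others did not. Over both genotypes, 1.06% of all genes rose and 0.407% fell. Of 5 neutrophil markers 0 passed over both genotypes. Their mean was 6.24, 8.11 and 7.66 in Hsp72Tg MCAO, against 6.56 and 6.35 in Hsp72Tg sham, and 7.27, 7.60 and 7.79 in WT MCAO, against 6.89 and 5.98 in WT sham. Hsp72Tg MCAO 1, low in the probe sets that stand for Mcl1 and Bcl2l11, was thus within the sham range of the neutrophil list. Hsp72Tg MCAO 2, the array highest in Pmaip1 and Bcl2l11, had the highest mean of that list. Only S100a8 (10.88) and S100a9 (10.61) were highest in that array. There Mpo (5.67) and Elane (6.48) lay within the range of the other arrays, and Csf3r (6.92) lay below them all. S100a8 and S100a9, abundant in neutrophils, differed by 2.38 (SE 0.78) and 2.49 (SE 0.78) over both genotypes. Mpo and Elane, granule enzymes of these cells, differed by 0.04 and 0.03, and Csf3r by 0.06. Of 5 macrophage and monocyte markers 2 rose, Cd14 by 3.36 (SE 0.56) and Cd68 by 1.35 (SE 0.18). Their mean was 7.50 to 8.63 over the MCAO arrays, lowest in Hsp72Tg MCAO 1, and 6.95 to 7.24 over the sham arrays. Of 4 microglial markers 0 passed. P2ry12, a purine receptor of resting microglia, read 8.38, 6.45 and 6.48 in Hsp72Tg MCAO, against 8.91 and 8.59 in Hsp72Tg sham, and 6.47, 7.21 and 6.90 in WT MCAO, against 8.17 and 8.92 in WT sham. Hsp72Tg MCAO 1 lay within its sham range and the other 5 MCAO arrays lay below it. P2ry12 differed by -1.67 (SE 0.37, limma adjusted p = 0.0586) and Tmem119 by -0.27 (SE 0.16). The other microglial markers, Cx3cr1 and Sall1, differed by 0.09 (SE 0.26) and -0.10 (SE 0.19). In WT 2 of the 4 were higher in value after MCAO, and in Hsp72Tg 0 were. Of 5 endothelial markers 2 rose, Pecam1 by 1.003 (SE 0.18) and Cldn5 by 0.65 (SE 0.12), while Cdh5 was 1.13 higher (SE 0.24, limma adjusted p = 0.0557). Flt1 differed by 0.60 (SE 0.20), and Tek went the other way (-0.25, SE 0.28). The mean of the 5 was 8.14 in Hsp72Tg MCAO 1 and 8.11 in Hsp72Tg MCAO 2, both above every sham array. Tek alone read 6.53 in Hsp72Tg MCAO 2, below every other array. Of 6 astrocyte markers 1 rose, Gfap by 1.60 (SE 0.19), and Aqp4 differed by 0.27 (SE 0.14). In value 4 of the 6 were higher, while Gja1 differed by -0.13 (SE 0.10) and Slc1a3 by -0.05 (SE 0.10). The part of these cells in the values of the BCL2 family genes was not tested.

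Neurons had 0 of 8 markers past the test, with a list mean of 11.98 to 12.40 over the MCAO arrays and 12.22 to 12.39 over the sham arrays. The furthest were Tubb3 (-0.38, SE 0.14) and Nefl (-0.30, SE 0.09). Of 4 oligodendrocyte markers 1 fell, Mog by 0.58 (SE 0.12), against 0.407% of all genes, and Mobp differed by 0.29 (SE 0.09). Of 5 lymphocyte markers 0 passed, with Cd3e and Cd8a both at -0.08. Of 2 red blood cell markers 0 passed, with Alas2 at 0.72 (SE 0.40) and Hba-a1 at -0.04. Of 6 cerebellar markers 0 passed, with Gabra6 at -1.27 (SE 0.78) and Pcp2 at -1.01 (SE 0.63), both high in WT sham 1.

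The genes whose values ran most like those of Bak1 and Mcl1, the 2 with the smallest p over both genotypes, were ranked by Pearson's r over the 10 arrays. For Bak1 they were Furin (r = 0.954), Sobp (0.948), Dazap1 (0.945) and Klhl2 (0.939). For Mcl1 they were Abca1 (r = 0.974), Cfl2 (0.973), Ptpn2 (0.968) and Ubxn4 (0.967). None of these 8 genes passed over both genotypes, and the arrays share the MCAO and sham groups, so these correlations are descriptions.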

How the data were processed

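The deposited table held log2 expression values from RMA (named in the submitters' processing notes), 1 per probe set and array. RMA subtracts background, scales arrays to each other and merges the probes of a set. Its version is not given in the sources used here. With no scanner files used, dim probe sets carry no background flag, and the number of arrays (10) limits the precision.

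Of 45101 probe sets, 64 controls were left out, 34945 had 1 gene symbol, 932 had several and 9160 were not listed. Symbols came from the platform annotation and were looked up by Entrez identifier in the RefSeq table of GRCm38.p6, where 34741 matched and 0 changed. The probe set with the highest mean stood for each of 18193 genes.

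A model with a mean per group was fitted to all 10 arrays in limma 3.58.1 (R 4.3.3), with eBayes, 6 residual and 3.72 prior degrees of freedom. The 6 contrasts were tested two-sided, and the threshold was an adjusted p under 0.05 (Benjamini-Hochberg over all genes). Errors are SEs of the contrast and intervals are 95%. The code was tested on simulated data. The comparisons over both genotypes and within each share arrays.

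The members, the lists and the rule for named genes were chosen with earlier results of these data known. The rule took all members, every pathway gene that passed, the 2 furthest genes of each list and the 4 genes most correlated with each of the 2 members of smallest p. Fas, Tnfrsf10b, Fadd, Tradd, Usp9x, Mapk8, Apaf1 and Cycs are named beside it. So are the markers Mpo, Elane, Csf3r, Cldn5, Flt1, Tek, Cx3cr1, Sall1, Gja1 and Slc1a3. All of these were chosen after their values were seen.

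Replicate numbers were checked for pairing. Deviations from group means of same-numbered arrays correlated at -0.16 to 0.25. Arrays of different numbers were not compared, so this check cannot tell whether numbers pair samples. The main model used no pairing. Alternatives were a replicate block, only the arrays compared, eBayes with trend and robust options, arrayWeights, centring on array medians, the mean over probe sets, each other probe set, genes above the lower quartile only and leaving out arrays.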

Additional observations from a re-analysis of the deposited data

Results flagged for a closer look

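In 5 of the 18 sets checked (9 genes, the 6 MCAO arrays or the 4 sham arrays pooled over genotype), 1 array lay far from the others by Dixon's 95% criterion, which chance meets in about 1 of 20 sets. Pmaip1 read 7.12 in Hsp72Tg MCAO 2, with the next MCAO array at 5.41. Mcl1 read 10.24 in Hsp72Tg MCAO 1, with the next at 10.88. Bbc3 read 6.43 in WT MCAO 1, with the next at 6.67. Bid read 7.82 in WT MCAO 2, with the next at 7.61. Bcl2l1 read 10.28 in WT sham 1, the array with high cerebellar markers, with the next sham array at 10.10. The sets pool both genotypes, and why these arrays stand apart was not tested.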

How the results depend on the processing

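With the replicate block, 19 genes passed over both genotypes, 0 in WT and 0 in Hsp72Tg, and 0 of the 9 BCL2 family genes. Whether the replicate numbers pair samples was not settled. With only the arrays compared, 955 genes passed in WT with 2 of the 9 (Mcl1, Pmaip1), 0 in Hsp72Tg and 3 for genotype after sham surgery. With arrayWeights 1116 genes passed over both genotypes and 1358 in WT, with 1 of the 9 (Mcl1) in each. With the mean over probe sets 6 genes passed in WT. Without WT sham 1 and Hsp72Tg MCAO 1 together, 1177 genes passed over both genotypes (1 of the 9, Mcl1), 148 in WT, 780 in Hsp72Tg, 1 for the difference of the MCAO changes and 2 for genotype after sham surgery. Leaving out each array, 11 (without Hsp72Tg sham 1) to 2251 genes passed over both genotypes (0 to 4 of the 9), 0 to 463 in WT (0 to 1), 0 to 1181 in Hsp72Tg (0 to 2), 0 to 2 for the difference of the MCAO changes, 0 to 5 for genotype after MCAO and 0 to 3 after sham surgery. Each of the higher member counts came without Hsp72Tg MCAO 1.

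Signs turned as follows. Bid was 0.0241 in Hsp72Tg with the replicate block, -0.0235 over both genotypes with the mean over probe sets, and -0.0201 over both genotypes and -0.00826 in WT without the 2 arrays. The Mcl1 genotype difference after MCAO was 0.10 without them. Other probe sets of Bcl2l1 gave -0.0258 over both genotypes, -0.0317 and -0.0235 in WT and -0.0199 in Hsp72Tg. Those of Bcl2l2 gave -0.00166 over both genotypes and -0.0885 and -0.0524 in WT, and those of Bid -0.0852 and -0.0108 over both genotypes and -0.0711 in WT. Bcl2l11 gave -0.0976 and -0.0343 in WT, and Bcl2 0.0166 in Hsp72Tg. Leaving out each array, Bid ran from -0.103 to 0.155 over both genotypes, -0.0217 to 0.119 in WT and -0.262 to 0.254 in Hsp72Tg. Bcl2l2 ran from -0.0355 to 0.185 over both genotypes and -0.139 to 0.302 in Hsp72Tg. The Mcl1 genotype difference after MCAO ran from -0.345 to 0.0951, that of Pmaip1 from -0.13 to 0.897, and the Pmaip1 difference of MCAO changes from -0.21 to 0.816. Except where fewer arrays entered, the cause was not tested. Pmaip1 lies below the lower quartile of genes and was not tested under that filter. With 2 sham arrays a genotype, small differences were not detectable.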
